A study of Mus musculus with 8 samples.

Results

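The 10 genes described here encode the channels that release calcium from the endoplasmic reticulum, the pumps that remove calcium from the cytosol and a sensor of the store: Itpr1, Itpr2, Itpr3, Ryr1, Ryr2, Ryr3, Atp2a2, Atp2b1, Atp2b2 and Stim2. They were picked by name, through the gene symbol in the control tables and through the Entrez number in the mutant tables, and all 10 were found among 17673 genes matched between both kinds of table. The RNA came from the hippocampus of C57BL/6 mice in 4 groups of 2 libraries. The mutants were CRISPR knockouts of Pyk2 (KO) and CRISPR mutants with the Y402F change in Pyk2 (Y402F), and each line came with its own wild-type mice (KO controls and Y402F controls). The labels give neither the age of the mice nor whether a library is 1 animal or a pool, so the spread between libraries may be partly technical. Pyk2 is a calcium-activated tyrosine kinase encoded by Ptk2b, and the Y402F change replaces the tyrosine at which it phosphorylates itself. The study concerns contextual fear memory and the part that this site plays in it. The labels call the mice of all groups transgenic and do not say which part of Ptk2b the knockout removes.

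In neurons the endoplasmic reticulum holds calcium at a far higher concentration than the cytosol. IP3 receptors open when a receptor at the cell surface has activated phospholipase C, and ryanodine receptors open when cytosolic calcium itself rises. The SERCA pumps return calcium to the store, the PMCA pumps expel it through the plasma membrane, and STIM proteins sense a depleted store and open Orai channels. In the hippocampus these proteins shape calcium signals in dendrites and spines during synaptic plasticity.

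The mutant libraries held 5756180 to 6017219 expected counts, while no source used here states the depth of the controls. Mutant and control values were deposited in tables of different make, so genotype and processing cannot be told apart wherever a mutant is set against controls. Levels are given as scaled FPKM, which is the authors' FPKM, a level per transcript length and depth, divided by a scale factor per library. Ptk2b was at 56.0 and 68.7 scaled FPKM in KO and at 353 and 396 in Y402F, against 309 and 308 in the KO controls and 323.5 and 317 in the Y402F controls. All 6 markers of dentate granule cells and all 8 of pyramidal neurons reached 1 scaled FPKM in every library, so the tissue on the label is present. Xist and the Y-linked Ddx3y gave replicate 1 of each mutant a female and replicate 2 a male pattern. By the same genes the KO controls had a female and the Y402F controls a male pattern. Xist was at 25.5 in KO replicate 1 and 40.1 in Y402F replicate 1, but only at 3.95 and 3.24 in the KO controls. Ddx3y was at 0.0694 and 0.0695 in the KO controls. Ttr, a gene of the choroid plexus, stood at 656 in the second Y402F library and reached 1015 and 1032 in the wild-type pair of that line, with 10.2 or less elsewhere.

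The 10 genes covered more than 2 orders of magnitude, and their order differed between mutant and control libraries. In KO the mean level was highest for Atp2a2 (178 scaled FPKM), followed by Atp2b1 (132), Atp2b2 (74.9), Itpr1 (51.7), Stim2 (28.5), Ryr2 (16.7), Ryr3 (3.03), Itpr2 (2.10), Ryr1 (0.907) and Itpr3 (0.533). The order in Y402F was the same, and there only Ryr1 and Itpr3 overlapped. In both control groups Atp2b1 had the highest mean, followed by Atp2a2, Itpr1, Stim2 and Atp2b2. Itpr1 and Stim2 overlapped in the KO controls, as did each neighbouring pair from Itpr2 down to Itpr3. In the Y402F controls the overlapping neighbours were Stim2 with Atp2b2 and Ryr3 with Itpr2.

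**Figure D1:**
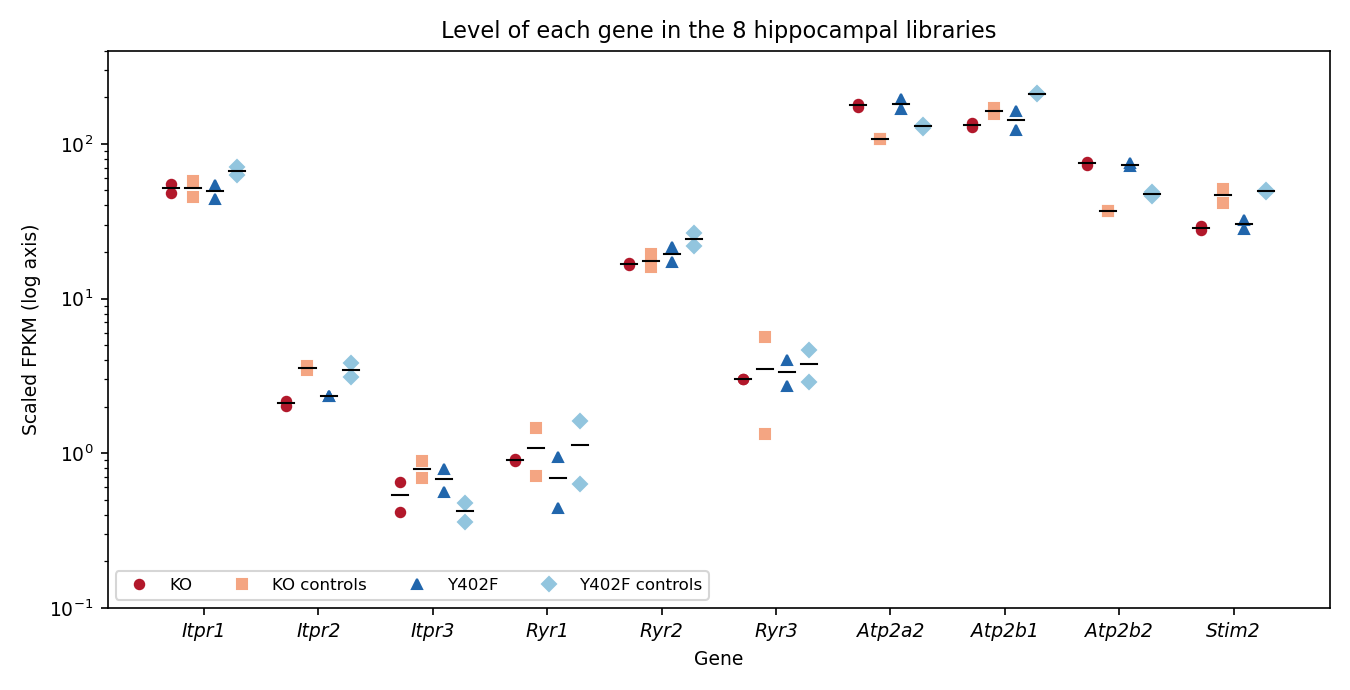
Level of each gene in scaled FPKM (log axis) in the 8 libraries, with 1 symbol per library and a bar at the mean of each group (n = 2). Atp2b2 sits at 71.9 to 76.8 in the 4 mutant libraries, above all 4 control libraries (36.6 to 48.6), and Stim2 at 27.6 to 32.3, below all 4 (41.5 to 51.4).

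Itpr1 encodes the main IP3 receptor of neurons (Entrez 16438; chromosome 6, 108213096 to 108551109, plus strand, on GRCm38 as all positions here). It was at 55.2 and 48.2 scaled FPKM in KO and at 54.5 and 44.1 in Y402F, against 45.5 and 57.7 in the KO controls and 70.5 and 63.4 in the Y402F controls. KO overlapped its controls, whereas both Y402F libraries lay below both of theirs. Its value rested on 2508 to 3026 expected counts in the mutants. The upper confidence bounds in the authors' control tables reached 110 to 111% of the value. Purkinje cells of the cerebellum express Itpr1 very strongly, and their marker Pcp2 was at 2.46 scaled FPKM in Y402F replicate 1 and at 0.0857 or less elsewhere, with Ppp1r17 at 0.534 or less in all libraries. The 6 Purkinje markers listed summed to 106 to 121 in KO and 93.3 to 104 in Y402F, against 108 to 112 in the KO controls and 82.1 to 86.1 in the Y402F controls, with 3 of 6 at 1 or more in both libraries of each group. Of these, Calb1, which hippocampal granule cells also express, was at 44.5 and 36.7 in KO and 46.1 and 38.4 in Y402F, against 28.9 and 25.7 in the KO controls and 26.8 and 23.6 in the Y402F controls. Limma called Calb1 higher in both mutants (0.55 and 0.72, adjusted p = 0.0179 and 0.00629), and its part in the levels of Itpr1 was not tested.

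Itpr2 encodes the IP3 receptor best known from astrocytes (Entrez 16439; chromosome 6, 146108299 to 146502223, minus strand). It was at 2.01 and 2.19 scaled FPKM in KO and at 2.34 and 2.33 in Y402F, against 3.46 and 3.64 in the KO controls and 3.12 and 3.81 in the Y402F controls. All 4 mutant libraries were below all 4 controls. The upper bound of the authors' interval in the controls reached 169 to 181% of the value, so each control value is loose although the replicates lay close. Itpr3, the IP3 receptor of epithelial and taste cells (Entrez 16440; chromosome 17, 27057304 to 27122223, plus strand), was at 0.419 and 0.647 in KO and at 0.561 and 0.792 in Y402F, against 0.892 and 0.687 in the KO controls and 0.361 and 0.479 in the Y402F controls. The KO libraries were below and the Y402F libraries above their own controls, on 21 to 41 expected counts per mutant library, and in all 4 controls the lower bound was 0. Exons of Itpr3 overlap Itpr3os on the opposite strand and Mir7677 on the same strand, and no source says that strand was used in counting. Exons of Itpr1 (Gm44040 and Gm44101) and of Ryr1 (Gm26604 and Gm44408) also overlap genes on the opposite strand.

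Among the ryanodine receptors Ryr2, the form that predominates in heart and in much of the brain, was the most abundant (Entrez 20191; chromosome 13, 11553102 to 12106945, minus strand). Ryr2 was at 16.4 and 17.1 scaled FPKM in KO and at 21.7 and 17.3 in Y402F, against 19.3 and 15.9 in the KO controls and 21.7 and 26.5 in the Y402F controls. KO overlapped its controls. The Y402F libraries lay below theirs, by a narrow margin of 21.66 in Y402F replicate 1 against 21.73 in the lower Y402F control. Ryr3, a form known from the hippocampus (Entrez 20192; chromosome 2, 112631355 to 113217096, minus strand), was at 3.04 and 3.01 in KO and at 4.03 and 2.70 in Y402F, against 5.63 and 1.34 in the KO controls and 2.88 and 4.64 in the Y402F controls. All groups overlapped. Relative to the mean, the KO controls were the widest pair of any member (SD 3.04 on a mean of 3.48), and the authors' interval for the higher of them ran from 0 to 45.0 FPKM before scaling. Ryr3 also shares exon sequence with Aven on the opposite strand. Ryr1, the channel of skeletal muscle (Entrez 20190; chromosome 7, 29003344 to 29125179, minus strand), was at 0.922 and 0.891 in KO and at 0.942 and 0.444 in Y402F, against 0.709 and 1.45 in the KO controls and 0.634 and 1.62 in the Y402F controls, with overlap between all groups.

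Atp2a2 encodes SERCA2, the pump that refills the store in neurons (Entrez 11938; chromosome 5, 122453513 to 122502225, minus strand). It was at 174 and 181 scaled FPKM in KO and at 194 and 168 in Y402F, against 107.8 and 107.9 in the KO controls and 126 and 133 in the Y402F controls. Both mutants stood above their controls with no overlap, and so did all 4 mutant libraries together. The mutant tables assign Atp2a2 a length of 5416 to 5478 bases, and the coding transcripts of GENCODE M21 measure 3984 to 4486 bases. The control tables state no length, and its part in the result was not tested. Exon sequence of Atp2a2 overlaps Gm43361 on the opposite strand, and the part of this overlap was not tested either.

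Atp2b1 encodes PMCA1, the plasma membrane pump found in most cells (Entrez 67972; chromosome 10, 98914406 to 99026143, plus strand). It was at 136 and 128 scaled FPKM in KO and at 164 and 123 in Y402F, against 171 and 155 in the KO controls and 214 and 209 in the Y402F controls. Each mutant lay below its own controls. Atp2b2 encodes PMCA2, a fast plasma membrane pump concentrated in neurons and hair cells (Entrez 11941; chromosome 6, 113743831 to 114042613, minus strand). It was at 73.0 and 76.8 in KO and at 75.2 and 71.9 in Y402F, against 37.0 and 36.6 in the KO controls and 48.6 and 46.3 in the Y402F controls. The 4 groups were tight, with SDs of 0.229 to 2.67, and both mutants stood above their controls.

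The sequences before the annotated starts of Atp2b2 and Stim2 are shown for their differences on the scale of log2(scaled FPKM + 1). Of the 8 members tested against controls, Atp2b2 had the largest rise and Stim2 the largest fall in both lines on that scale. As a ratio of mean levels, Itpr2 fell further than Stim2 in KO (0.591 against 0.613 of the KO controls). RefSeq windows were available for 7 of the 10 genes; Itpr1, Ryr3 and Atp2a2 had none. The 3 windows of Atp2b2 and the 1 of Stim2 are the 250 bases before a RefSeq start on GRCm38.p6. They are written 5′ to 3′ on the strand of the gene. The Atp2b2 windows lie within the gene span given above. The Stim2 window ends at 53998522, past the gene start of GENCODE M21 at 53998499. A stretch of 30 bases after the start was in 0 GENCODE M21 transcripts of the gene for start A, 1 for B, 2 for C and 1 for Stim2. Capitals mark the GC box (GGGCGG or CCGCCC), searched on both strands.
Atp2b2 start A, chr6:114042081-114042330, minus strand: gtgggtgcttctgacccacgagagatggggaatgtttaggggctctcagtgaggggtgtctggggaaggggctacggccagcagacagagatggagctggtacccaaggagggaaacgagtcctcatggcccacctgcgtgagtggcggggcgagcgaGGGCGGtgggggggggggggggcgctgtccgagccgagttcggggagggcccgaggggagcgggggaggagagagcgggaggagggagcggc
Atp2b2 start B, chr6:113934682-113934931, minus strand: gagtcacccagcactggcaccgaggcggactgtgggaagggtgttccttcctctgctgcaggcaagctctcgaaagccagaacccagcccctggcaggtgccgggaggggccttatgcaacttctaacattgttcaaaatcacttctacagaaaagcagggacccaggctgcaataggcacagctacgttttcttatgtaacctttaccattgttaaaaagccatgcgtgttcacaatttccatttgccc
Atp2b2 start C, chr6:113891540-113891789, minus strand: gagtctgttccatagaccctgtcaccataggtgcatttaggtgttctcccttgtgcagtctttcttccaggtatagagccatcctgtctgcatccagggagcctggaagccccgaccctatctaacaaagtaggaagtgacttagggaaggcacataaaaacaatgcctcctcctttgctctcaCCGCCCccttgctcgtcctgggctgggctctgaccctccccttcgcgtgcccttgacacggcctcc
Stim2 start, chr5:53998273-53998522, plus strand: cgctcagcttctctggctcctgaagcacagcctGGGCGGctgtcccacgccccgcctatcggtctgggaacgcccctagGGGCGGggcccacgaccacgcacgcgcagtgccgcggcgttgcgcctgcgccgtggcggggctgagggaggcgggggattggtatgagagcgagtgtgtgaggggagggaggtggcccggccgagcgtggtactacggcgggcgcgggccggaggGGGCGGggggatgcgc
The window of start A was 69.6% G and C with 16 CG pairs, that of start B 52.0% with 6 and that of start C 55.6% with 6. Starts A and C held 1 GC box each and start B none. The Stim2 window was 74.8% G and C with 30 CG pairs and 3 GC boxes. Over 32851 windows of this length the median was 52.4% with 6 CG pairs, and 32.7% held a GC box. Neither TATAAA, in 12.4% of all windows, nor the cAMP response element TGACGTCA, in 1.55%, occurred in these 4 windows on either strand. Both kinds of table give 1 value per gene, so the use of each Atp2b2 start was not measured. The mutant value of Atp2b2 rested on 2 RefSeq transcripts, while GENCODE M21 lists 8 transcripts of the gene. The part of the transcripts counted in its difference from controls was not tested.

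Stim2 encodes the STIM protein that responds to small losses of store calcium and is a prominent STIM of neurons (Entrez 116873; chromosome 5, 53998499 to 54121057, plus strand). It was at 29.4 and 27.6 scaled FPKM in KO and at 32.3 and 28.0 in Y402F, against 41.5 and 51.4 in the KO controls and 48.6 and 50.5 in the Y402F controls. All 4 mutant libraries lay below all 4 controls. Its mutant length of 4930 bases was close to that of its longest coding transcript in GENCODE M21, 4934 bases. For Atp2b1 the longest coding transcript equalled the mutant length (7130 bases), and for Atp2b2 the mutant length of 6985 to 7013 bases lay within the coding range of 4586 to 8877 bases.

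Shares within a family do not depend on the scale of a library. The mean share of the leading channel genes differed less between groups than that of the pump genes. A gene that takes nearly all of a sum, as Itpr1 does, can change its share little even where its level changes. In Y402F the mean level of Itpr1 was 0.736 of that in its controls. The shares of Itpr1 in KO (95.78 and 94.45%) lay above those in the KO controls (91.27 and 93.03%). Itpr1 took 95.1 ± 0.939% of the summed level of the IP3 receptor genes in KO and 94.2 ± 1.11% in Y402F, against 92.1 ± 1.25% in the KO controls and 94.5 ± 1.16% in the Y402F controls (SD, n = 2 each). Ryr2 took 80.9 ± 0.616% of the ryanodine receptor genes in KO and 83.0 ± 2.32% in Y402F, against 80.2 ± 6.99% in the KO controls and 83.5 ± 3.70% in the Y402F controls. Among the 3 pump genes Atp2b1 took 34.4 ± 1.54% in KO and 35.9 ± 2.80% in Y402F, against 53.0 ± 1.72% in the KO controls and 54.4 ± 0.980% in the Y402F controls. The level of Atp2b1 was 1.86 and 1.67 times that of Atp2b2 in KO and 2.18 and 1.71 times in Y402F, against 4.63 and 4.23 times in the KO controls and 4.41 and 4.51 times in the Y402F controls. The ratios of the 4 mutant libraries lay below those of the 4 controls, and the ratios of the control pairs overlapped.

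**Figure D2:**
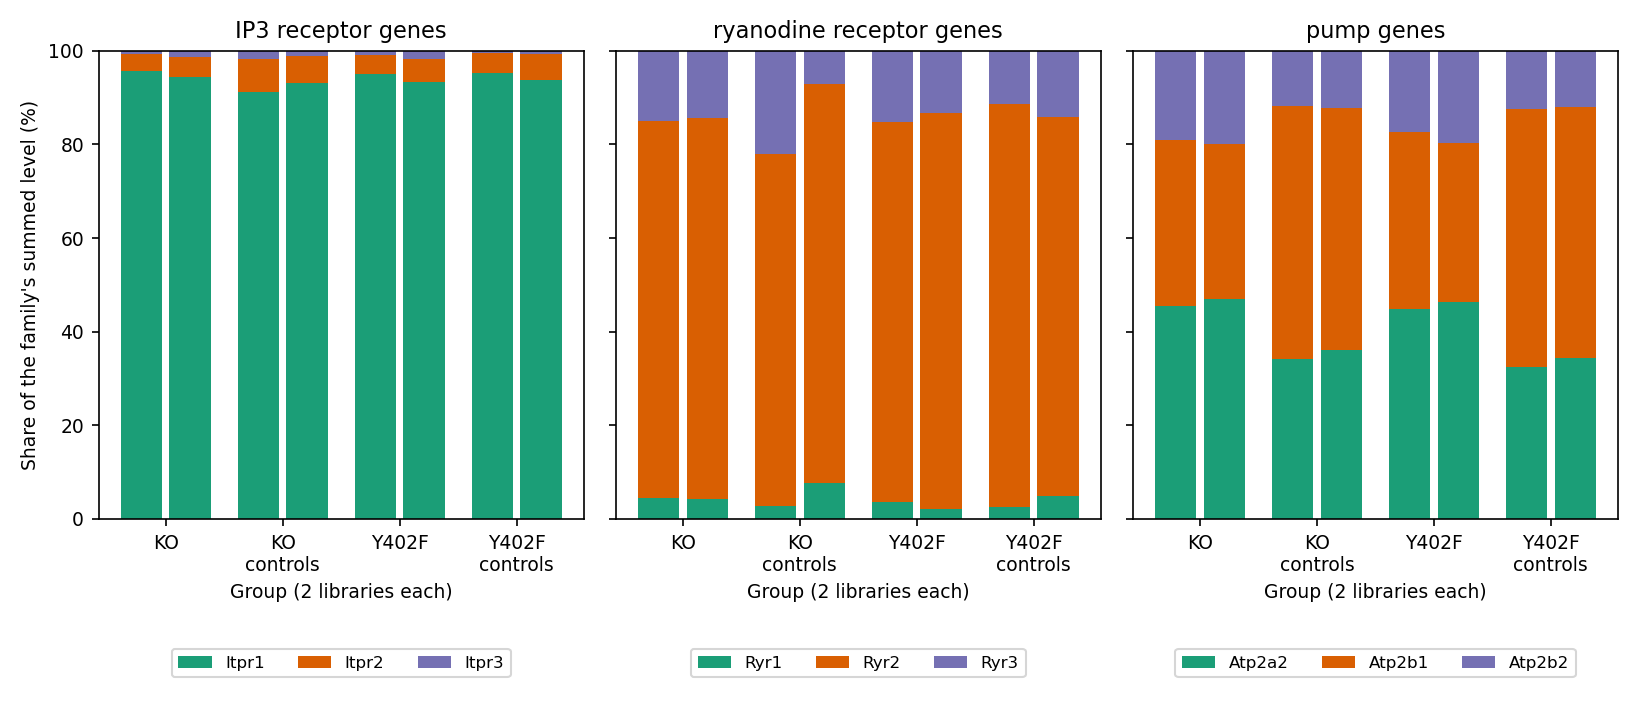
Share of each gene in the summed level of its family (%), with 1 bar per library. Atp2b1 takes 33.3 to 37.9% of the pump genes in the mutant libraries, against 51.8 to 55.1% in the controls. Itpr1 takes 91.3 to 95.8% of the IP3 receptor genes over all 8 libraries.

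KO against Y402F is the comparison of the mutants within tables made the same way. It sets the knockout beside the Y402F change in 2 separate lines, and no protein was measured here. The wild-type pairs of these lines also differed (7.95% of 12954 genes called by limma), so allele and line cannot be told apart. None of the 10 genes was called by edgeR's quasi-likelihood test at an adjusted p under 0.05, where 0.0148% of 13473 genes were called, 0.00742% higher and 0.00742% lower. The libraries of 2 of the 10 members did not overlap (Itpr2 and Ryr2, both lower in KO), against 25.7% of 12954 genes. None had an unadjusted edgeR p under 0.05, against 261 of 13473 genes, and DESeq2 called none either. The median log2 difference of the 10 genes was -0.10, against 0.00 over all genes. The pump genes Atp2a2 and Atp2b2 were the closest to 0, with Atp2a2 at -0.02 (SE 0.12, 95% interval -0.27 to 0.22) and Atp2b2 at 0.02 (SE 0.12, -0.24 to 0.28). For Itpr1 the log2 difference was 0.07 (SE 0.14, -0.22 to 0.36), for Atp2b1 -0.12 (SE 0.13, -0.39 to 0.15) and for Stim2 -0.08 (SE 0.15, -0.39 to 0.22). Itpr2 was at -0.17 (SE 0.19, -0.56 to 0.22) and Ryr3 at -0.16 (SE 0.19, -0.54 to 0.23). Ryr2 had the smallest p of the 10, with -0.22 (SE 0.15, -0.53 to 0.08) and an edgeR adjusted p of 0.999. The intervals of the rarer genes were wider, from -1.10 to 0.42 for Itpr3 and from -0.22 to 1.01 for Ryr1. A difference of 1 in either direction lay outside the interval of every member but Itpr3 and Ryr1.

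Against its controls KO had 2 genes higher and 2 lower of the 8 that passed the level filter (a mean of at least 1 FPKM), where 37.6% of 12954 genes were called, 16.7% higher and 20.9% lower. The share of members called was thus not far from that of all genes. In 6 of the 10 members the libraries did not overlap, against 71% of 12954 genes that passed this filter. The 6 include Itpr3, which did not pass it. Differences are on the scale of log2(scaled FPKM + 1) and come from limma. Atp2b2 rose by 1.00 (SE 0.09, limma adjusted p = 8.24e-05), and 13.1% of genes had a larger absolute difference. Atp2a2 rose by 0.71 (SE 0.09, limma adjusted p = 0.000562). Stim2 fell by 0.68 (SE 0.13, limma adjusted p = 0.00430) and Itpr2 fell by 0.55 (SE 0.18, limma adjusted p = 0.0399). The Itpr2 call was lost without any 1 of the KO or KO control libraries (adjusted p 0.0907 to 0.138), without the level filter (0.0519), with a term for the sex pattern (0.0555) and with only these 4 libraries (0.05865). Atp2b1 was at -0.30 (SE 0.13, limma adjusted p = 0.0999). It was called without scaling (-0.44, adjusted p = 0.0279), with only these 4 libraries (0.0460) and without Y402F replicate 1 (0.0236) or 2 (0.0233), and was at 0.0090 with quantile normalization. Itpr1 (0.01), Ryr2 (-0.07) and Ryr3 (0.03, SE 0.44) were not called. Without KO control replicate 2 the value of Ryr3 was -0.72, and without KO control replicate 1 it was 0.79. In tissue RNA, fewer cells of a type and less RNA per cell cannot be told apart.

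Y402F against its controls had the same split of 2 higher and 2 lower of 8, where 32.3% of 12954 genes were called, 13.1% higher and 19.3% lower. In 8 of the 10 members the libraries did not overlap, against 68.6% of 12954 genes that passed the level filter. The 8 include Itpr3, which did not pass it. Atp2b2 rose by 0.62 (SE 0.09, limma adjusted p = 0.00120) and Atp2a2 rose by 0.47 (SE 0.09, limma adjusted p = 0.00506). Stim2 fell by 0.70 (SE 0.13, limma adjusted p = 0.00437) and Atp2b1 fell by 0.57 (SE 0.13, limma adjusted p = 0.0111). The Atp2b1 call was lost without Y402F control replicate 1 (adjusted p = 0.0515). Itpr1 was at -0.44 (SE 0.15, limma adjusted p = 0.0558) and was called with a term for the sex pattern (-0.56, adjusted p = 0.0281), without scaling (-0.59, adjusted p = 0.0188) or without either KO control library (0.0404 and 0.0406). Itpr2 was at -0.42 (SE 0.18, limma adjusted p = 0.109) and was called without the intensity trend (0.0438), Ryr2 at -0.30 and Ryr3 at -0.12. Without the level filter Itpr3 was at -0.22 in KO and 0.24 in Y402F and Ryr1 at -0.10 and -0.31, with limma adjusted p-values of 0.297, 0.286, 0.841 and 0.496. Without scaling the median gene was at -0.12 in both comparisons of mutants with controls.

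The 4 mutant libraries did not overlap the 4 controls for Atp2a2, Atp2b2, Stim2 and Itpr2, which is 4 of the 8 genes that passed the filter, beside 42.2% of 12954 genes. Markers of several cell types differed between the same groups. The summed level of 6 dentate granule markers was 138 to 145 scaled FPKM in KO and 158 to 160 in Y402F, against 76.9 to 77.6 in the KO controls and 113.5 to 114.3 in the Y402F controls, with no marker at 0, and limma called 5 of 6 higher in KO and 2 of 6 higher in Y402F. The summed level of 8 astrocyte markers was 1202 to 1249 in KO and 1148 to 1178 in Y402F, against 2163 to 2251 in the KO controls and 1656 to 1695 in the Y402F controls, again with none at 0. Limma called 3 of these higher and 3 lower in KO, and 1 higher and 2 lower in Y402F, with the largest differences at Aldoc (-1.99 and -1.51). The 8 pyramidal markers summed to 678 to 691 in KO and 738.7 to 739.5 in Y402F, against 890 to 909 and 707 to 721 in their controls. The 8 oligodendrocyte markers summed to 2925 to 3491 and 2652 to 2972, against 4452 to 4575 and 2890 to 2917. Both lists had calls in both directions. The 8 choroid plexus markers summed to 41.9 and 757.8 in Y402F, against 1151 to 1176 in the Y402F controls. Their part in the differences of the calcium genes was not tested.

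**Figure D3:**
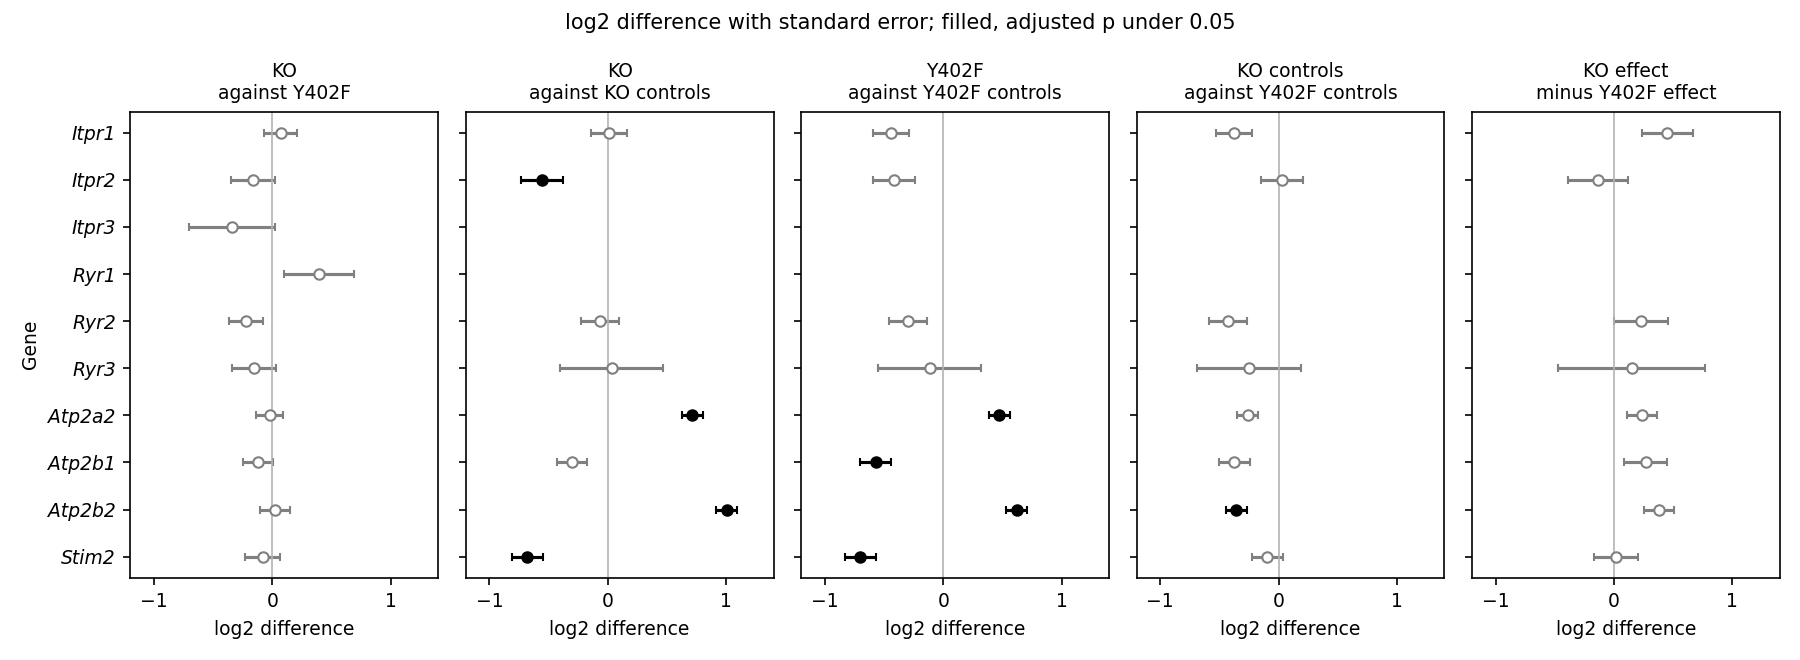
log2 difference of each gene with its standard error in the 5 comparisons, from edgeR for KO against Y402F and from limma otherwise. Filled points have an adjusted p under 0.05. Itpr3 and Ryr1 have no limma points because their mean was under 1 FPKM. Against controls the filled points of Atp2b2 lie at 1.00 in KO and 0.62 in Y402F, and those of Stim2 at -0.68 and -0.70.

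The wild-type pairs of both lines were compared within tables of one kind. Of the 8 genes tested 1 was called, where 7.95% of 12954 genes were called, 4.82% higher and 3.13% lower. In 6 of the 10 members the libraries did not overlap, against 59% of 12954 genes that passed the level filter. The 6 include Itpr3, which did not pass it. Atp2b2 fell by 0.36 in the KO controls relative to the Y402F controls (SE 0.09, limma adjusted p = 0.0483), a call lost under 13 of 16 alternatives, among them all 8 fits with 1 library left out, with adjusted p from 0.05395 to 0.1837. Of the 8 genes 7 had a negative difference, with a median of -0.31 against -0.02 over all genes. An unadjusted limma p under 0.05 was found for 5 of the 8, and for 3507 of all 12954 genes. Ryr2 was at -0.43 (SE 0.16, limma adjusted p = 0.129), Itpr1 at -0.38 (SE 0.15, 0.153), Atp2b1 at -0.37 (SE 0.13, 0.109) and Atp2a2 at -0.26 (SE 0.09, 0.109). Stim2 (-0.10), Itpr2 (0.03) and Ryr3 (-0.25) were nearer to 0 or more scattered. The sex pattern, the choroid plexus markers (49.6 to 51.4 scaled FPKM summed over 8 markers in the KO controls, with Kcne2 at 0, against 1151 to 1176 in the Y402F controls with none at 0) and the dentate granule markers differ between the same pairs. Limma called 5 of 7 choroid plexus and 4 of 6 dentate granule markers lower in the KO controls, and 4 of 8 microglia, 3 of 8 astrocyte and 2 of 8 oligodendrocyte markers higher. Their summed levels were 319 to 334, 2163 to 2251 and 4452 to 4575 in the KO controls, against 205.5 to 232.3, 1656 to 1695 and 2890 to 2917 in the Y402F controls, with none at 0. Of the 8 astrocyte markers, however, 4 had a positive and 4 a negative difference, with a median of 0. For the sex pattern and all of these markers, their part in the values of the calcium genes was not tested. With a term for the sex pattern Atp2b1 was called (-0.62, limma adjusted p = 0.0397) and Atp2b2 was not (-0.35, limma adjusted p = 0.08203). Each control pair has a single sex pattern, so this term was estimated from the mutant libraries alone, where it follows the replicate number. It cannot part sex from line between the control pairs.

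Whether KO and Y402F stood apart from their controls by different amounts was tested over all 8 libraries, which the comparisons above share. None of the 8 genes was called by limma, where 0.0309% of 12954 genes were called. Beside 1683 of 12954 genes, 1 of the 8 had an unadjusted p under 0.05. That gene was Atp2b2, with 0.38 (SE 0.13, unadjusted p = 0.0158, limma adjusted p = 0.284). It was followed by Itpr1 with 0.45 (SE 0.21, limma adjusted p = 0.418) and Atp2a2 with 0.24 (SE 0.13, limma adjusted p = 0.469). Atp2b1 had 0.27, Ryr2 0.23, Ryr3 0.15 and Itpr2 -0.14, and Stim2 was nearest to 0 with 0.02 (SE 0.18, limma adjusted p = 0.974).

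The other genes of calcium handling were read through 6 lists drawn up by name. Between KO and Y402F edgeR called none of the 80 genes tested, 0 had an unadjusted p under 0.05 and DESeq2 called 0. Of 76 genes tested with limma, 29 (38.2%) were called in KO against its controls, where 37.6% of all genes were, and 26 (34.2%) in Y402F against its controls, where 32.3% were. The counts per list below stand beside 16.7% of all genes higher and 20.9% lower in KO, and 13.1% higher and 19.3% lower in Y402F. Against controls the other pumps and exchangers had 6 genes higher and 2 lower of 12 in KO, and 5 higher and 2 lower of 12 in Y402F. Atp2b3, which encodes the neuronal pump PMCA3, rose in KO by 0.93 (SE 0.10, limma adjusted p = 0.000184), at 47.9 and 47.3 scaled FPKM in KO against 24.9 and 24.2 in the KO controls, and in Y402F by 0.58 (limma adjusted p = 0.00233). The exchanger gene Slc24a5 rose in KO by 1.90 and in Y402F by 2.20 (limma adjusted p = 0.000476 and 0.000233), at 7.69 to 9.73 in the mutants against 0.814 to 1.86 in the controls. Atp2c1, the calcium pump of the Golgi, fell in KO by 0.68 (SE 0.13, limma adjusted p = 0.00416) and in Y402F by 1.20 (SE 0.13, limma adjusted p = 0.000247).

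Genes of store-operated entry had 2 of 11 higher in each mutant and none lower, a share of higher calls near that of all genes. Orai2, an Orai channel subunit, rose by 0.75 in KO and by 0.86 in Y402F (limma adjusted p = 0.00868 and 0.00531), at 58.2 and 78.1 scaled FPKM in KO and 60.0 and 79.4 in Y402F, against 38.6 and 40.8 in the KO controls and 38.0 and 37.2 in the Y402F controls. Replicate 1 was the lower library in both mutants. The second gene was Trpc6, a cation channel, in KO (0.70, limma adjusted p = 0.0366), with 0.46 in Y402F (limma adjusted p = 0.151). In Y402F it was Saraf, which limits store-operated entry (0.39, limma adjusted p = 0.0135), with -0.02 in KO (limma adjusted p = 0.861). Among regulators of the release channels 1 of 14 rose and 4 fell in KO, and 2 rose and 4 fell in Y402F, where 37.6% of all genes were called in KO and 32.3% in Y402F. Sri, whose product sorcin inhibits ryanodine receptors, fell by 1.04 in KO and by 1.07 in Y402F (limma adjusted p = 0.000405 and 0.000387). Fkbp1b, the ryanodine receptor partner FKBP12.6, fell by 0.92 in KO and by 0.91 in Y402F (limma adjusted p = 0.00129 and 0.00154).

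Calcium-binding proteins of the reticulum had 5 of 11 lower in KO, where 20.9% of all genes were, and 1 higher and 2 lower in Y402F, near the shares of all genes. The chaperone genes Hsp90b1 and Calr fell in KO by 1.02 and 0.47 (limma adjusted p = 0.00141 and 0.00250), and Hsp90b1 fell in Y402F by 0.68 (limma adjusted p = 0.0109), where Calr was at 0.16 (limma adjusted p = 0.170). Calr, Hspa5 and Rcn3, all called lower in KO, were also called higher in the KO controls than in the Y402F controls (0.58, 0.49 and 0.92). Calr was at 216 and 202 scaled FPKM in KO, against 295.5 and 282.7 in the KO controls and 198 and 187 in the Y402F controls. Canx fell by 0.47 in KO and by 0.50 in Y402F (limma adjusted p = 0.00776 and 0.00679). Genes of mitochondrial uptake had 4 of 11 higher and 3 lower in KO, and 4 higher and 2 lower in Y402F, beside 16.7% and 20.9% of all genes in KO and 13.1% and 19.3% in Y402F. Smdt1, which encodes a subunit of the mitochondrial calcium uniporter, fell by 1.08 in KO and by 0.55 in Y402F (limma adjusted p = 0.000597 and 0.0178). The outer membrane channel gene Vdac3 rose by 0.69 in KO and by 0.96 in Y402F (limma adjusted p = 0.000840 and 0.000154). Genes of IP3 production and removal had 2 of 17 called in each mutant, fewer than the 37.6% of all genes in KO and 32.3% in Y402F. In KO these were the phospholipase-like gene Plcl2 (0.57) and the kinase gene Itpkc (0.64), both higher (limma adjusted p = 0.0172 and 0.0285), and in Y402F the phospholipase genes Plcd3 (-1.16) and Plcb4 (-1.13), both lower (limma adjusted p = 0.0246 and 0.0489). Plcd3 was at 2.15 and 2.48 scaled FPKM in Y402F, against 4.09 and 9.78 in the Y402F controls, which lay far apart.

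**Figure D4:**
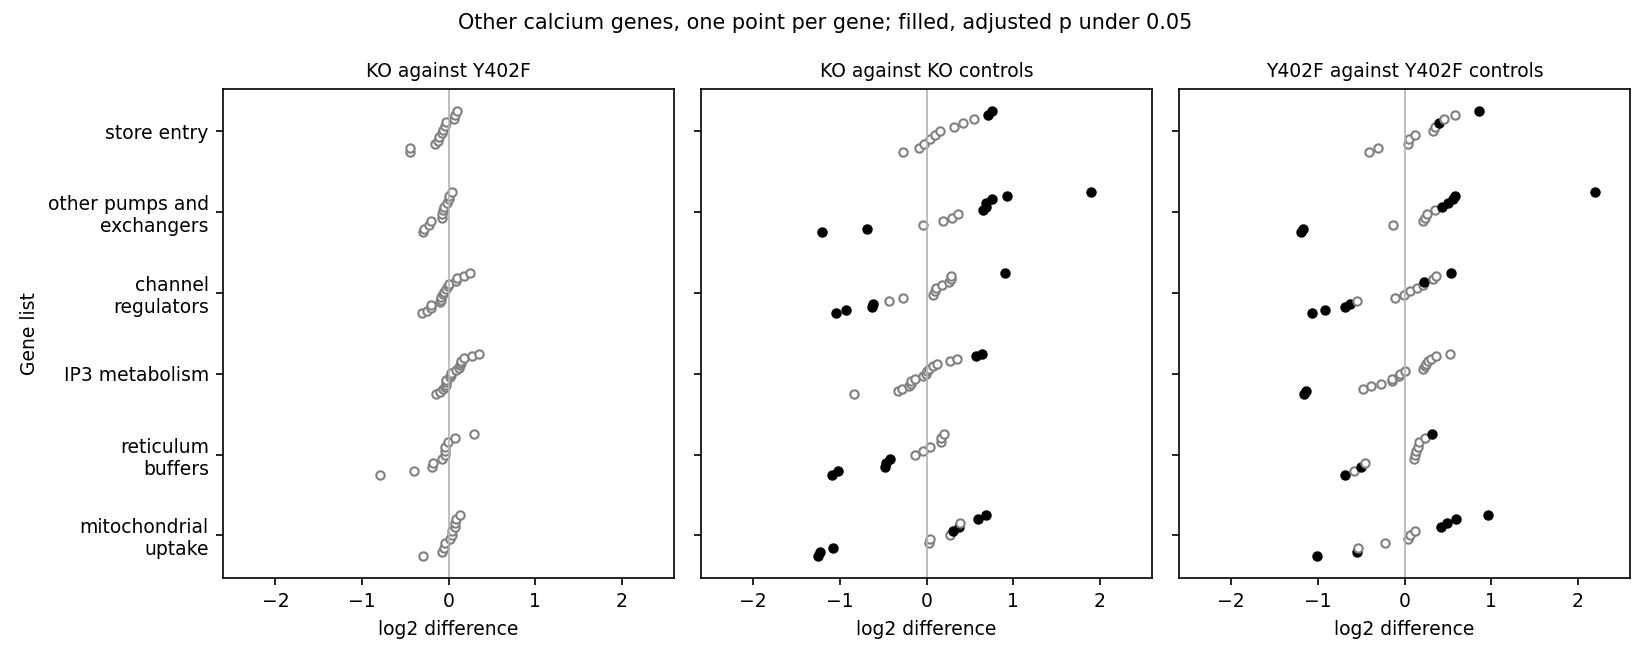
log2 difference of every tested gene of 6 calcium gene lists, 1 point per gene, in KO against Y402F, KO against KO controls and Y402F against Y402F controls. Filled points have an adjusted p under 0.05. No point is filled between the mutants, and the highest points against controls are those of Slc24a5, at 1.90 in KO and 2.20 in Y402F.

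Between the KO controls and the Y402F controls 8 of 76 genes of these lists were called (10.5%), where 7.95% of all genes were. Calr rose by 0.58 (limma adjusted p = 0.0115) and the chaperone gene Hspa5 by 0.49 (limma adjusted p = 0.0336) in the KO controls, as did the reticulum calcium-binding gene Rcn3 by 0.92 (limma adjusted p = 0.0478), while the calsequestrin gene Casq2 fell by 0.97 (limma adjusted p = 0.0348). Smdt1 rose by 0.67 (limma adjusted p = 0.0313) and Saraf by 0.38 (limma adjusted p = 0.0469). Atp2b3 fell by 0.42 (limma adjusted p = 0.0387), as its paralog Atp2b2 did, and Jph1, which encodes a junctophilin that ties the reticulum to the plasma membrane, fell by 0.66 (limma adjusted p = 0.0371). In the lists with a single call, the gene of next smallest p was Trpc6 (-0.60) for store-operated entry, Atp2c1 (-0.50) for pumps, Homer3 (0.59) for regulators and Vdac3 (0.22) for mitochondrial uptake, with limma adjusted p-values of 0.127, 0.0511, 0.0569 and 0.172. For the difference between the effects limma called none of the 76 genes tested. Of these, 11 had an unadjusted p under 0.05, beside 1683 of 12954 genes.

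Likeness of pattern was read as Pearson's r of log2(scaled FPKM + 1) over the 8 libraries, which share the split into mutant and control tables. The genes closest to Atp2b2 were Prepl (r = 0.998), Enc1 (0.996) and Adcy1 (0.994), and those closest to Atp2a2 were Rnf24 (0.997), Brinp1 (0.996) and Gria1 (0.994). Stim2 was closest to Sfi1 (0.995), Afdn (0.993) and Cand1 (0.993), Itpr2 to Mcm9 (0.991), Man1b1 (0.989) and Gtf2h3 (0.989), and Atp2b1 to Zfp536 (0.992), Abi2 (0.985) and Mbd5 (0.984). Among the members Atp2a2 and Atp2b2 were alike (r = 0.986), as were Itpr2 and Stim2 (0.940), and Atp2b2 and Itpr2 ran opposite to each other (-0.934). Atp2b1 was closest to Stim2 (0.827) and Ryr2 (0.815) among the members, not to its paralog Atp2b2 (-0.590).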

How the data were processed

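The authors' mutant tables hold an expected count, a transcript length and FPKM for each Entrez gene, and the deposited control tables hold FPKM with confidence bounds for each Ensembl gene, per the file headers. The submitters' processing notes name Bowtie 1, HISAT and mm9 for every library and Cufflinks for the controls. Of 17671 control genes, however, 99.8% have the GRCm38 position of GENCODE M21, which is used here. The program behind the expected counts is not stated.

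Mutant genes were joined to control genes by symbol (17593) or Entrez number (80), out of 18022. Unjoined genes held 1.00 to 1.21% of the expected counts. Scale factors for FPKM were medians of ratios (11440 genes, each at least at 1 FPKM throughout). KO against Y402F used edgeR 4.0.16 (quasi-likelihood, TMM, expected counts rounded to whole numbers, all genes of the mutant tables, 2 residual degrees of freedom). The other comparisons used limma 3.58.1 on log2(scaled FPKM + 1) with a trend, all 8 libraries and 4 residual degrees of freedom. A call is an adjusted p under 0.05 (Benjamini-Hochberg over all genes tested). DESeq2 1.42.0 was an alternative, beside other scalings, filters and covariates and each library left out. Both fits were tested on simulated data. R 4.3.3 and Python 3.11.15 were used.

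The members and lists were chosen with earlier results of these data known. All 10 members are named, with the 2 genes of smallest p in each other list where at least 1 was called, and the 3 genes most like each called member (unnamed gene models, small RNAs and mitochondrial transcripts left out). Rcn3 and Casq2, and the correlations among members, were chosen after their values were seen. For 1 gene named by this rule, no result is reported here.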

Additional observations from a re-analysis of the deposited data

How the results depend on the processing

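Of 602 log2 differences of the members under alternatives, 541 kept their direction and their side of the threshold, 21 lost a call, 12 gained one and 28 changed sign, none of them a called value. The calls of Atp2a2, Atp2b2 and Stim2 against controls held in both lines under every alternative run. All alternatives used the same mutant and control tables, so none could part the make of the tables from genotype. The single call between the control pairs (1 gene) became 0 without a level filter, without the intensity trend, with the replicate block and with only the libraries compared, and ran from 0 to 1 with 1 library left out. Those left-out fits never kept Atp2b2, the gene reported, and the 1 is Atp2b1, called without Y402F replicate 1 (adjusted p = 0.04193) or replicate 2 (0.04239). Fits of fewer libraries have fewer degrees of freedom, and the cause of these changes was not tested.

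Against controls in KO, the differences of Itpr1 and Ryr3 turned to -0.13 and -0.070 without scaling, and those of Ryr2 and Atp2b1 to 0.063 and 0.0090 with quantile normalization. With 1 library left out, signs turned within these ranges: KO against Y402F, Itpr1 -0.066 to 0.23, Ryr1 -0.051 to 1.04, Ryr3 -0.41 to 0.16, Atp2a2 -0.11 to 0.073, Atp2b1 -0.30 to 0.10 and Stim2 -0.17 to 0.024; KO against KO controls, Itpr1 -0.16 to 0.18, Ryr2 -0.20 to 0.063 and Ryr3 -0.72 to 0.79; Y402F against Y402F controls, Ryr3 -0.39 to 0.16; KO controls against Y402F controls, Itpr2 -0.082 to 0.14, Ryr3 -1.002 to 0.50 and Stim2 -0.25 to 0.053; KO effect minus Y402F effect, Ryr3 -0.60 to 0.90 and Stim2 -0.13 to 0.17.

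The replicate block changed 1 member call, that of Atp2b2 between the control pairs (adjusted p = 0.0556), and moved the genes called between KO and Y402F from 2 to 4. Libraries with the same number deviated together between KO and Y402F (r = 0.203 over genes) and not between other groups (-0.031 to 0.048). No label pairs the numbers. In KO and Y402F the sex pattern follows the replicate number, so both terms give the same fit there. Each control pair has a single pattern, so in the limma fits the sex term rested on the mutant libraries alone. Over all genes, calls between KO and Y402F ran from 1 to 5 under other settings and from 18 to 44 with 1 library left out (2 as reported), between the control pairs from 165 to 1279 and from 170 to 891 (1030), for the difference of effects from 4 to 135 and from 6 to 15 (4), and for KO against its controls down to 3117 without KO replicate 1 (4874). Precision is limited by 2 libraries a group, and by the depth for Itpr3 and Ryr1, with 21 to 41 and 39 to 81 expected counts.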
